A study of Mus musculus with 6 samples.

Results

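The genes of the 4 T cell receptor chains were followed in RNA from thymocytes labelled double-negative, comparing mice with and without a Cre that targets Tox. Members were the listed genes whose symbol names a segment of the alpha, beta, gamma or delta locus. They numbered 82 of 22298 listed genes: 8 constant genes, 70 joining (J) segments and 4 diversity (D) segments. By chain there were 52 alpha, 17 beta, 8 gamma and 5 delta genes. Variable (V) segments are not analysed here.

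A T cell receptor is either an alpha-beta or a gamma-delta pair. Each chain is assembled in the thymus by joining V, J and, for beta and delta, D segments, and the joined exon is then spliced to a constant gene, which is read in every transcript of that chain. The beta, gamma and delta genes rearrange in double-negative cells and the alpha genes mostly in double-positive cells. The delta genes lie inside the alpha locus, between its V and J segments, so that joining an alpha V to an alpha J segment deletes them from that chromosome.

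The samples came from C57BL/6 mice given no treatment, 3 samples of the genotype Toxf/f, in which Tox is flanked by recombination sites, and 3 of the genotype Toxf/fPdcd1Cre, which carry the same Tox alleles and in addition Pdcd1Cre, a Cre recombinase under the name of Pdcd1, which encodes the inhibitory receptor PD-1. The labels do not say in which cells this Cre acts, and Pdcd1 itself had 19 counts in 1 Toxf/f library and 0 in the other 4 libraries. The age was 3 weeks for replicates 1 and 2 of each genotype and 4 weeks for replicate 3. Tox encodes a nuclear protein needed to form CD4+ T cells. The Toxf/f mice carry no Cre, so an effect of the Cre itself and one of the loss of Tox cannot be told apart. Toxf/f replicates 1 and 2 had identical values under the same library name and were counted as 1 library, called the shared Toxf/f library. This left 2 Toxf/f against 3 Toxf/fPdcd1Cre libraries. The labels do not say whether each sample came from 1 animal or several. The 2 Toxf/f libraries differ in age, as does Toxf/fPdcd1Cre replicate 3 from replicates 1 and 2. Toxf/fPdcd1Cre replicate 1 had 1 count of the chromosome Y gene Ddx3y, against 843 in replicate 2. Libraries of a genotype were thus not repeats of the same sample. The p-values reflect only how these libraries vary.

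Libraries held 14245492 to 16199195 estimated counts, of which the 82 members took 0.322% to 0.376%. Tox stood at 121 and 105 CPM (counts as a rate of the scaled library size) in Toxf/f and at 13.8 to 19.2 CPM in Toxf/fPdcd1Cre libraries. One protocol names the sorted cells more narrowly, as DN2. Against both labels, the coreceptor gene Cd8a had rank 129 by mean FPKM (fragments scaled by gene length and depth) and Cd4 had rank 226, although double-negative cells lack both proteins. Toxf/fPdcd1Cre replicate 1 stood apart from the others with 0.0683 CPM of the chromosome Y gene Ddx3y, against 53.8 to 81.5 CPM in the other 4 libraries. Values are given with and without that library where it sets them.

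Transcripts were counted almost wholly at the constant genes. These 8 genes held 266865 counts over the 5 libraries and the 74 D and J segments held 1, a single count of Trgj2 in Toxf/fPdcd1Cre replicate 2. All 51 alpha J segments, 13 beta J, 2 delta J and 4 D segments were at 0 in every library, as were the other 3 gamma J segments. A count of 0 allows up to 3 counts per library, which is 0.181 to 0.206 CPM. The annotated exons of these segments are 11 to 66 bases long. Outside the receptor loci 54 listed genes have exons of at most 66 bases, 32 of them immunoglobulin D or J segments, and 0 of the 54 had a count in any library. None of the 54 is shown here to be transcribed in these cells, so whether short exons gave the counts of 0 was not tested. Use of single J segments, such as Traj18 of invariant natural killer T cells and Traj33 of mucosal-associated invariant T cells, could not be read from these counts.

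Some of the constant genes resemble one another closely, and the sequences show which values can be read singly. The beta chain has a pair of them, Trbc1 (ENSMUSG00000076490, chromosome 6, 41538218 to 41539881) and Trbc2 (ENSMUSG00000076498, chromosome 6, 41546730 to 41548352), both on the plus strand of GRCm38. Their first exons, of 375 bases each, differ at 1 position, C260A counted from the first base of the exon with Trbc1 first. A stretch of 120 bases around that position is printed for both genes, with the differing base in capitals.
Trbc1, chr6:41538418-41538537, plus strand: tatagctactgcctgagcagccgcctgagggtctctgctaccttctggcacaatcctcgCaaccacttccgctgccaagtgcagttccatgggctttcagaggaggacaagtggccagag
Trbc2, chr6:41546930-41547049, plus strand: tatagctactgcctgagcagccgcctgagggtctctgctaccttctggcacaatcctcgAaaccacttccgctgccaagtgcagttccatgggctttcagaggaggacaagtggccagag
Of the windows of 100 bases along the longest annotated transcript, 28.7% in Trbc1 and 30.9% in Trbc2 also occur in the other gene. The deposited counts of both genes were not whole in any of the 5 libraries, while their sum was whole, within 0.011 counts, in all 5. Reads were thus split between the genes by estimation, and the sum is the firmer value.

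The gamma chain has 4 constant genes on chromosome 13, Trgc1 (ENSMUSG00000076749, 19214103 to 19217024, plus strand), Trgc3 (ENSMUSG00000091682, 19260884 to 19263528, plus strand), Trgc2 (ENSMUSG00000076752, 19304649 to 19307551, minus strand) and Trgc4 (ENSMUSG00000076757, 19344558 to 19352756, plus strand), each with a J segment of its own. The first 120 bases of the first exon are shown for the 3 genes with appreciable counts, with capitals wherever any of the 3 differs, because they separate Trgc4 from the other pair.
Trgc1, chr13:19214103-19214222, plus strand: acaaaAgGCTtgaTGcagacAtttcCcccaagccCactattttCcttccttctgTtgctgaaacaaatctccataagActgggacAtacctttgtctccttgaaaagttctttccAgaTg
Trgc2, chr13:19307432-19307551, minus strand: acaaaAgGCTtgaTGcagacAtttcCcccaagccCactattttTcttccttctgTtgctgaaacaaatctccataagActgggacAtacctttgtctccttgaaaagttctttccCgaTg
Trgc4, chr13:19344558-19344677, plus strand: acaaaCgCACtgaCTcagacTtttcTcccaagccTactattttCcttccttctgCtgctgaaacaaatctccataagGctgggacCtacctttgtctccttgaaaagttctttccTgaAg
In this stretch Trgc1 and Trgc2 differ at 2 positions, Trgc1 and Trgc4 at 14, and Trgc2 and Trgc4 at 15. Over the whole first exon, of 330 bases, Trgc1 was 97.3% identical to Trgc2, 96.1% to Trgc3 and 82.1% to Trgc4. No window of 50 bases of Trgc4 occurs in another beta or gamma constant gene, and its counts were whole in all 5 libraries. Counts of Trgc1 and Trgc3 were not whole in Toxf/fPdcd1Cre replicates 2 and 3, nor those of Trgc2 in replicate 3, and the 3 genes again added up to whole numbers.

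Per length, the beta constants were the most abundant members. Trbc2 ranked 6 and Trbc1 27 among all genes by mean FPKM, Trac 163, Trgc1 1443, Trdc 1544, Trgc2 1767, Trgc4 4760 and Trgc3 14203. In FPKM, Trbc1 and Trbc2 together exceeded Trac, the alpha constant gene, 9.15-fold and 9.85-fold in Toxf/f, and 13.9-fold, 9.49-fold and 9.51-fold in Toxf/fPdcd1Cre replicates 1, 2 and 3. The length implied by count and FPKM was 935 bases for Trac in 4 libraries and 849 bases in Toxf/fPdcd1Cre replicate 2, so the FPKM of Trac in that library rests on a shorter length, and comparisons between genotypes below use counts.

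The comparison of genotypes asks how receptor transcripts differ when Tox is targeted. The delta constant gene Trdc rose, the 3 abundant gamma constant genes had higher values in every Toxf/fPdcd1Cre library than in any Toxf/f library without passing the test, and the alpha and beta constant genes overlapped between genotypes. Of the 82 members 7 passed the filter on low counts and were tested. With a threshold of 0.05 on the adjusted p from edgeR 1 of the 7 was higher, against 0.135% of all 14121 genes tested, and 0 were lower, against 1.51% of all genes. With a threshold of 0.1 there were 3 higher (0.248% of all genes). At an unadjusted p under 0.05 there were 3 higher (3.08% of all genes) and 0 lower (7.26%), and of the same 7 DESeq2 called 3 higher (0.318% of the 14130 genes it gave an adjusted p) and 0 lower (2.22%). Library values did not overlap between genotypes, with Toxf/fPdcd1Cre higher, for 4 of the 7 (12.6% of all genes), and with Toxf/fPdcd1Cre lower for 0 of the 7 (13.5%). The median log2 fold change was 0.58 over the 7 and 0.03 over all tested genes. In bulk RNA, fewer cells of a type and less RNA per cell cannot be told apart.

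**Figure D1:**
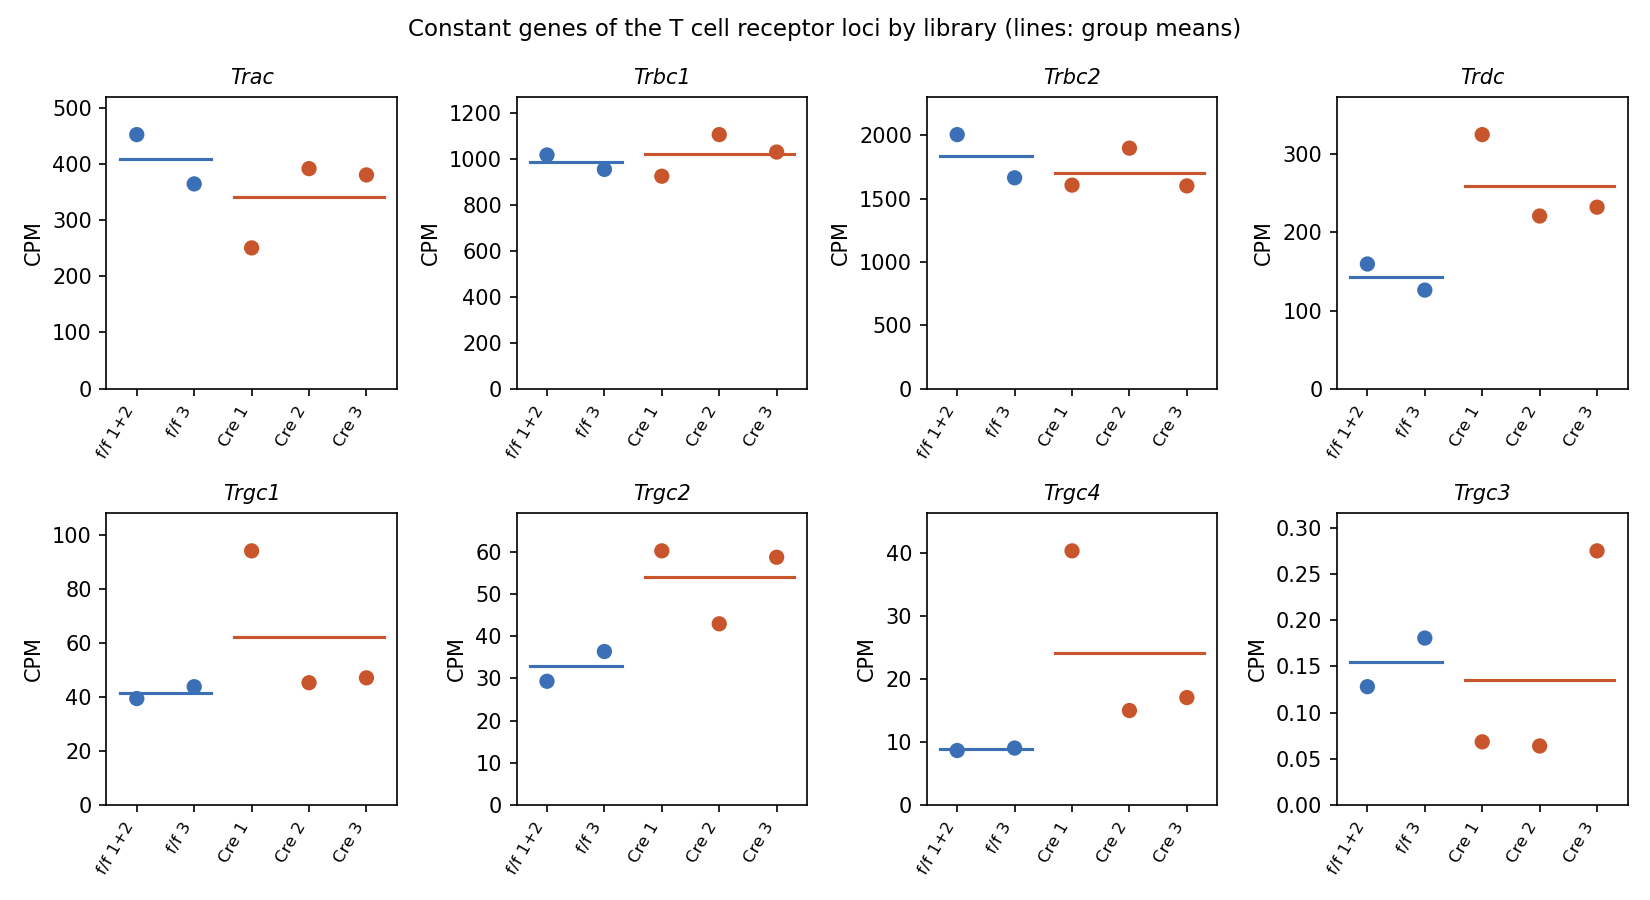
Level of each constant gene in CPM (vertical axes, from 0) in the 5 distinct libraries, Toxf/f (f/f, blue) and Toxf/fPdcd1Cre (Cre, orange), with replicate numbers on the horizontal axis and lines at the group means. Trdc and Trgc4 lie higher in all 3 Cre libraries, with Cre replicate 1 highest at 325 and 40.3 CPM, while Trac and both beta genes overlap between groups.

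Trdc encodes the constant part of the delta chain and is the only constant gene of that locus. It lies on chromosome 14 from 54142851 to 54148868 on the plus strand (ENSMUSG00000104876), upstream of Trac. The Toxf/f libraries held 159.5 and 126 CPM, and Toxf/fPdcd1Cre replicates 1, 2 and 3 held 325, 221 and 232 CPM. All 3 Toxf/fPdcd1Cre libraries were above both Toxf/f libraries, and replicate 1 was the highest. The mean was 143 ± 23.6 CPM in Toxf/f (SD, n = 2) and 1.82-fold higher, 259 ± 57.1 CPM, in Toxf/fPdcd1Cre (SD, n = 3), with a log2 fold change of 0.86 ± 0.187 (SE) and an adjusted p of 0.0437 (edgeR). Its p ranked 218 among all genes tested, near the end of the 232 that were called. An exact two-sided permutation test of this gene alone gave p = 0.1, the smallest value possible with 2 against 3 libraries.

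Trdc was also higher in Toxf/fPdcd1Cre libraries within each age. At 3 weeks it was at 159.5 CPM in the Toxf/f library and averaged 273 CPM in the pair of Toxf/fPdcd1Cre libraries, a ratio of 1.71. At 4 weeks the single libraries stood at 126 and 232 CPM, a ratio of 1.84. Without Toxf/fPdcd1Cre replicate 1 the ratio was 1.59 and the call held (adjusted p = 0.0420, edgeR). The call ended, with log2 fold changes of 0.70 to 1.04, without Toxf/fPdcd1Cre replicate 3 (adjusted p = 0.0666), without the shared Toxf/f library (adjusted p = 0.192) and without Toxf/f replicate 3 (adjusted p = 0.588), the last pair of fits having 1 Toxf/f library. It also ended with RLE scaling (adjusted p = 0.0551), with age as a covariate (adjusted p = 0.0789) and in limma on log2(FPKM + 1) (adjusted p = 0.114). The 3' end of Trdc overlaps the variable segment Trdv5 on the opposite strand. An antisense gene, Gm43434 (54128298 to 54146287), overlaps the 5' part of Trdc. Use of strand in counting is not given in the sources used here, so reads of these could be included.

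Among gamma constants Trgc4 had the largest ratio. Its first exon is the most distinct of the 4. The Toxf/f libraries held 8.64 and 9.03 CPM, and Toxf/fPdcd1Cre replicates 1, 2 and 3 held 40.3, 15.0 and 17.0 CPM. Groups did not overlap, and replicate 1 stood far above the others of its genotype. The means were 8.83 ± 0.277 CPM (SD, n = 2) and 24.1 ± 14.1 CPM (SD, n = 3), a ratio of 2.73, with a log2 fold change of 1.45 ± 0.371 (SE) that did not pass (adjusted p = 0.0943, edgeR). Without Toxf/fPdcd1Cre replicate 1 the ratio was 1.81 and the log2 fold change 0.82 (adjusted p = 0.0541), and without replicate 2 the gene passed at 1.70 (adjusted p = 0.0151). Within ages the ratios were 3.20 at 3 weeks and 1.89 at 4 weeks.

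Trgc2, the constant gene of the inverted gamma cluster, held 29.3 and 36.4 CPM in Toxf/f libraries and 60.2, 42.9 and 58.7 CPM in Toxf/fPdcd1Cre replicates 1, 2 and 3. Here replicates 1 and 3 were alike and replicate 2 was nearest to Toxf/f. The ratio of means was 1.64, with a log2 fold change of 0.72 ± 0.179 (SE) that did not pass (adjusted p = 0.0850, edgeR). Without Toxf/fPdcd1Cre replicate 1 the ratio was 1.55 (adjusted p = 0.172), and without replicate 2 the gene passed with a log2 fold change of 0.86 (adjusted p = 0.0169). Within ages the ratios were 1.76 at 3 weeks and 1.61 at 4 weeks.

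Trgc1, the constant gene of the cluster that holds most of the functional gamma V genes, stood apart in 1 library only. The Toxf/f libraries held 39.5 and 43.9 CPM and Toxf/fPdcd1Cre replicates 1, 2 and 3 held 94.3, 45.3 and 47.2 CPM. Replicates 2 and 3 were barely above the Toxf/f values. The log2 fold change was 0.58 ± 0.273 (SE, adjusted p = 0.502, edgeR), and 0.11 ± 0.138 (adjusted p = 0.816) without replicate 1, with ratios of 1.49 and 1.11. Within ages the ratios were 1.77 at 3 weeks, the age of replicate 1, and 1.07 at 4 weeks. Trgc3, a gene of very few transcripts here, had 2 and 3 counts in Toxf/f and 1, 1.01 and 4.01 counts in Toxf/fPdcd1Cre libraries and was not tested. Its ratio of rates was 0.862, with an exact 95% counting interval of 0.219 to 3.57, which covers counting error only.

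**Figure D2:**
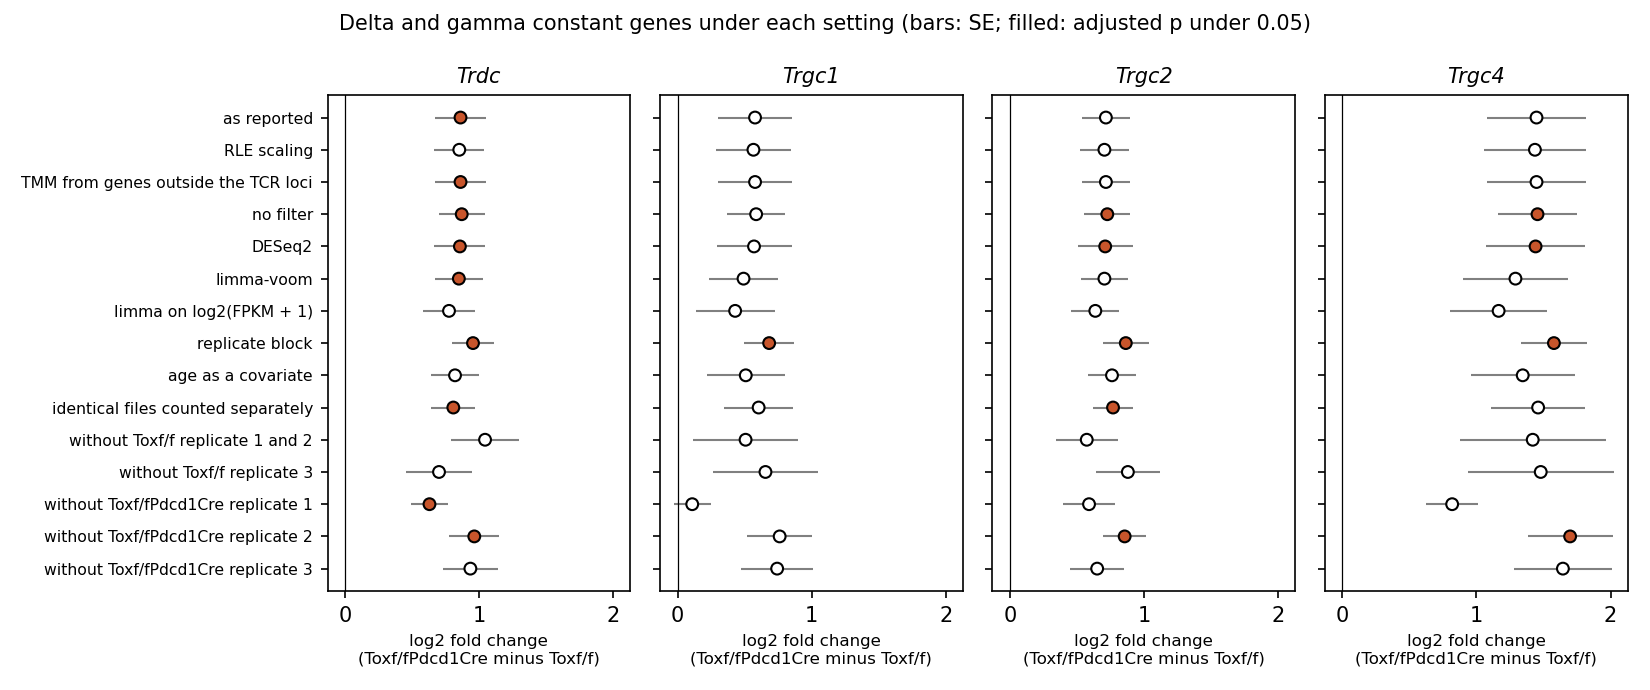
Log2 fold change (horizontal axis, Toxf/fPdcd1Cre minus Toxf/f, with SE) of Trdc, Trgc1, Trgc2 and Trgc4 as reported and under 14 alternatives (rows), with filled points where the adjusted p was under 0.05. All points lie above 0, the value of Trgc1 moves to 0.11 without Toxf/fPdcd1Cre replicate 1, and Trdc is filled in 8 of the 14 alternatives.

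The composition of the gamma constants differed between libraries. Trgc4 made up 11.1% and 10.1% of the counts of the 4 genes in Toxf/f libraries and 20.7%, 14.5% and 13.8% in Toxf/fPdcd1Cre replicates 1, 2 and 3, without overlap. Trgc1 made up 50.9% and 49.1% in Toxf/f and 48.4%, 43.9% and 38.3% in Toxf/fPdcd1Cre libraries, lower in all 3. The share of Trgc2 ranged from 37.8% to 40.6% in Toxf/f and from 30.9% to 47.7% in Toxf/fPdcd1Cre libraries and overlapped. These shares were not tested, since they are scores over the members.

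Trac, the alpha constant gene, lies on chromosome 14 from 54220521 to 54224206 on the plus strand (ENSMUSG00000076928). It held 452 and 364 CPM in Toxf/f and 250.5, 392 and 380.3 CPM in Toxf/fPdcd1Cre replicates 1, 2 and 3. Only replicate 1 was below the Toxf/f range, and the other libraries overlapped. The log2 fold change was -0.26 ± 0.192 (SE, adjusted p = 0.755, edgeR), and -0.12 ± 0.133 (adjusted p = 0.792) without replicate 1. Within ages the ratio was 0.710 at 3 weeks and 1.04 at 4 weeks. Replicate 1 was thus both the highest of the 5 libraries in Trdc, Trgc1, Trgc2 and Trgc4 and the lowest in Trac.

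Each beta constant gene was alike in level between genotypes. Trbc1 held 1018 and 955 CPM in Toxf/f and 925, 1106 and 1030.3 CPM in Toxf/fPdcd1Cre libraries, with a log2 fold change of 0.05 ± 0.143 (SE, adjusted p = 0.963, edgeR). Trbc2 held 2006 and 1665 CPM and 1607, 1899 and 1601 CPM, with a log2 fold change of -0.11 ± 0.155 (SE, adjusted p = 0.908, edgeR). Both genes together averaged 2822 ± 286 CPM for Toxf/f (SD, n = 2) and 2723 ± 249 CPM for Toxf/fPdcd1Cre (SD, n = 3), a ratio of 0.965. Trbc1 was 33.7% and 36.4% of the sum in Toxf/f and 36.5%, 36.8% and 39.2% in Toxf/fPdcd1Cre libraries, a share that depends on how reads were split between the near-identical genes.

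Ratios within a library do not depend on how libraries are scaled. They are ratios of counts and take no account of gene length, so they do not rank the chains by abundance. Exons of Trdc span 3865 bases, those of Trac 935 and those of the gamma constants 650 to 985. In Toxf/fPdcd1Cre replicate 1, for example, FPKM was 86.5 for Trdc and 275 for Trac. Per 100 Trac counts there were 35.3 and 34.6 Trdc counts in Toxf/f and 129.8, 56.4 and 61.1 in Toxf/fPdcd1Cre replicates 1, 2 and 3. The groups did not overlap and the mean ratio was 2.36-fold higher, or 1.68-fold without replicate 1. Per 100 counts of Trbc1 and Trbc2 there were 5.28 and 4.81 Trdc counts in Toxf/f and 12.8, 7.35 and 8.83 in Toxf/fPdcd1Cre libraries, again without overlap. For the 4 gamma constants together these were 2.56 and 3.41 in Toxf/f and 7.70, 3.44 and 4.68 in Toxf/fPdcd1Cre libraries, so that replicate 2 lay next to the higher Toxf/f value. Trac per 100 beta counts was 15.0 and 13.9 in Toxf/f and 9.89, 13.0 and 14.5 in Toxf/fPdcd1Cre libraries, where replicates 1 and 2 were below the Toxf/f range and replicate 3 within it. Gamma counts per 100 Trdc counts overlapped: they were 48.6 and 70.9 in Toxf/f, 46.8 and 53.0 in Toxf/fPdcd1Cre replicates 2 and 3, and between the Toxf/f values in replicate 1.

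**Figure D3:**
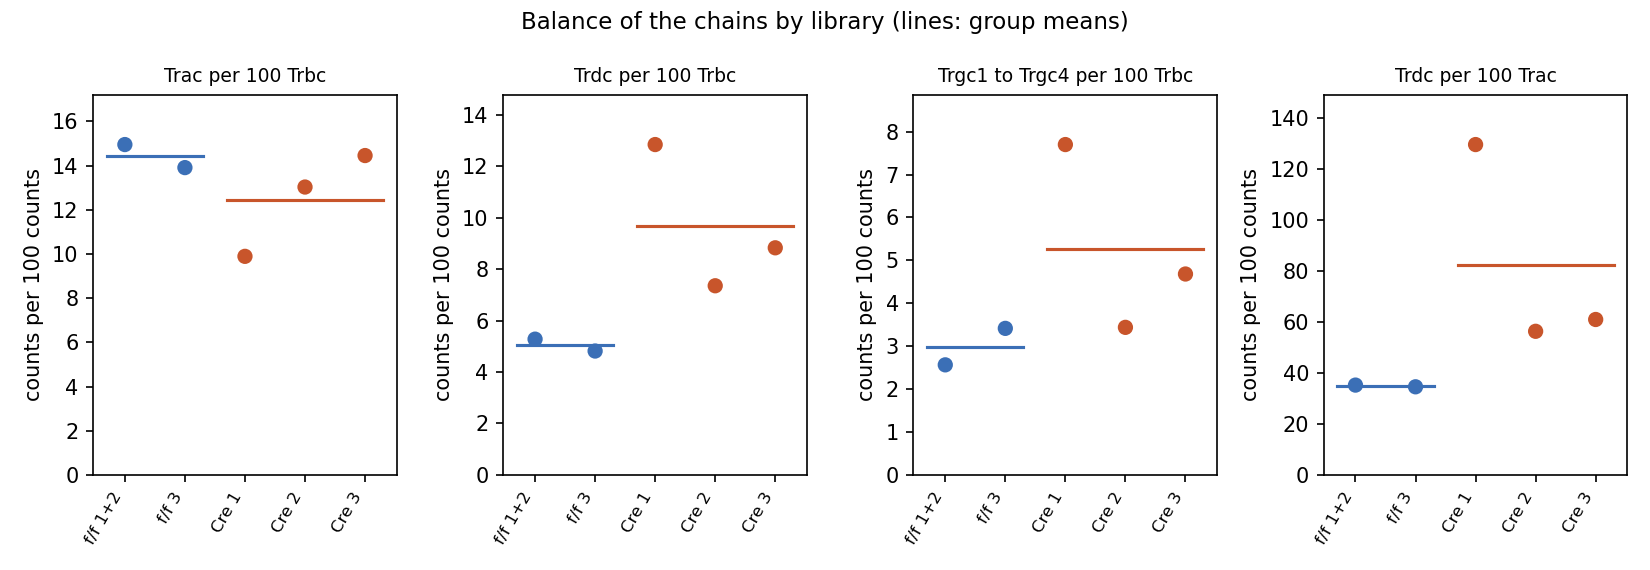
Counts of one chain's constant genes per 100 counts of another's (vertical axes, from 0) in each of the 5 distinct libraries (horizontal axis), Toxf/f blue and Toxf/fPdcd1Cre orange, with lines at group means. Trdc per 100 Trac lies at 35.3 and 34.6 in Toxf/f and at 56.4 or more in all 3 Cre libraries, and Cre replicate 1 is highest in both delta panels and in the gamma panel and lowest in Trac per 100 Trbc.

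Other genes of receptor assembly and signalling were read from a list of 39. Of these 38 were tested, 0 were higher and 2 were lower (1.51% of all genes) by edgeR, 0 and 3 by DESeq2 (0.318% and 2.22% of all genes), and 5 and 4 at an unadjusted p under 0.05 in edgeR (3.08% and 7.26%). The median log2 fold change was 0.07, and 9 genes did not overlap with Toxf/fPdcd1Cre higher (12.6% of all genes) and 5 with it lower (13.5%). The recombinase genes Rag1 and Rag2, which cut the segments, had log2 fold changes of 0.23 ± 0.164 and 0.09 ± 0.159 (SE, adjusted p = 0.738 and 0.930, edgeR). Dntt, which adds bases at the joins, stood at 0.26 (adjusted p = 0.714). The chains of the CD3 complex, which carry the signal of every receptor, lay between -0.04 for Cd3e and 0.11 for Cd3g, with none past the threshold (adjusted p = 0.973 and 0.903). Ptcra, which pairs with the beta chain before an alpha chain is made, stood at 0.42 ± 0.158 (SE, adjusted p = 0.342) and did not overlap, with 34.8 and 28.2 CPM in Toxf/f and 36.5 to 45.2 CPM in Toxf/fPdcd1Cre libraries.

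The lower pair were Lef1 and Il7r. Lef1, a factor that binds the alpha enhancer, held 387 and 376 CPM in Toxf/f and 221, 219 and 267 CPM in Toxf/fPdcd1Cre libraries. It fell by 0.70 on the log2 scale (SE 0.138, adjusted p = 0.0288, edgeR). Il7r, the receptor chain whose signal opens the gamma locus, held 48.8 and 53.5 CPM in Toxf/f and 36.4, 24.8 and 30.2 CPM in Toxf/fPdcd1Cre libraries and fell by 0.75 (SE 0.166, adjusted p = 0.0496). Neither gene overlapped between genotypes. The call of Lef1 ended without Toxf/f replicate 3, the shared Toxf/f library or Toxf/fPdcd1Cre replicate 2 (adjusted p = 0.294, 0.264 and 0.0677) and with age as a covariate (adjusted p = 0.0686), with log2 fold changes of -0.72, -0.67, -0.65 and -0.68. The call of Il7r ended without the same libraries (adjusted p = 0.464, 0.249 and 0.0934), where its log2 fold changes were -0.68, -0.81 and -0.62. It also ended without Toxf/fPdcd1Cre replicate 3 (adjusted p = 0.162), with RLE scaling (0.0571), with age (0.113) and in limma on log2(FPKM + 1) (0.104), at -0.74 to -0.76. Fits without a Toxf/f library have 1 left in that group, which is assumed to vary like the others.

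**Figure D4:**
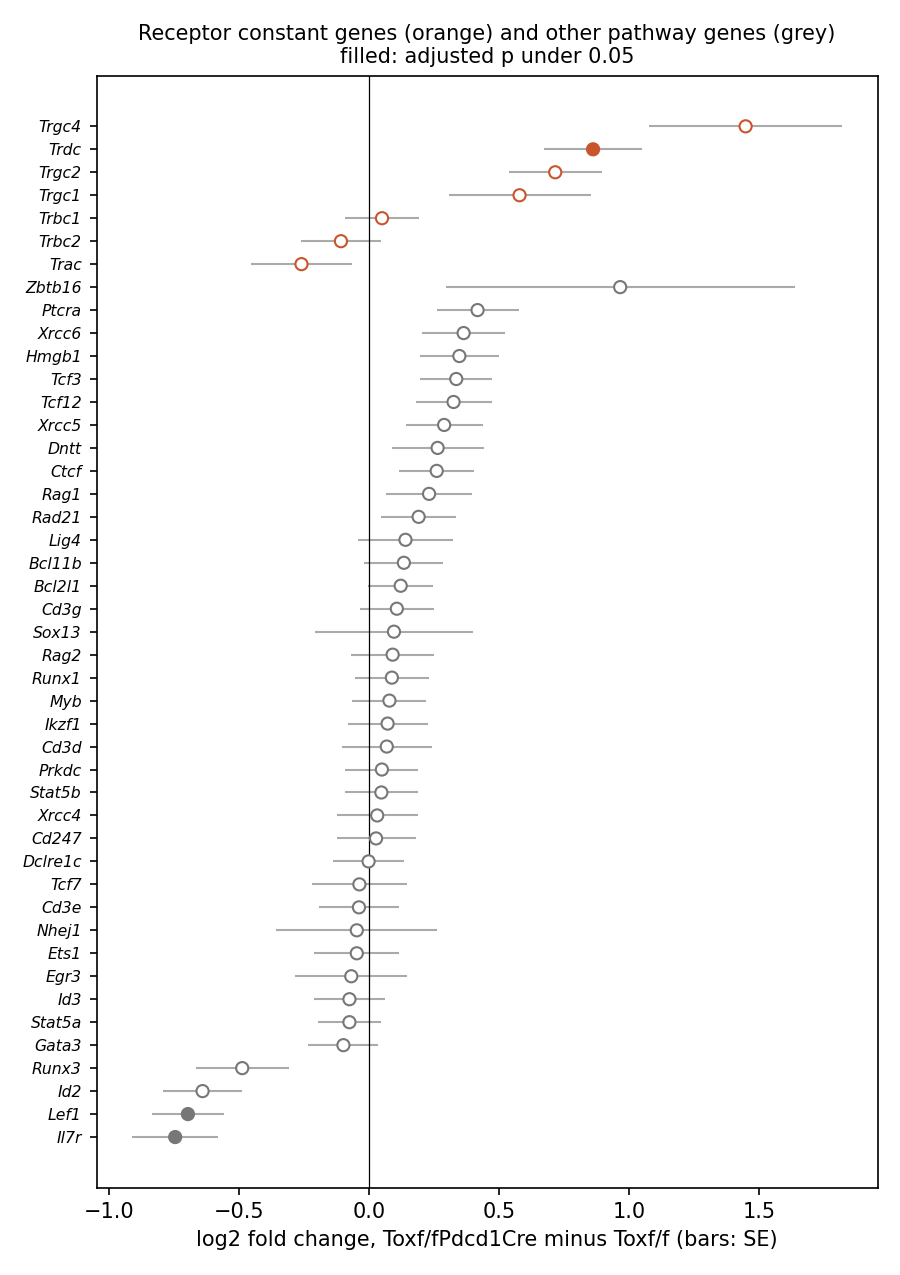
Log2 fold change (horizontal axis, Toxf/fPdcd1Cre minus Toxf/f, with SE) of the 7 tested constant genes (orange) and 38 other tested genes of receptor assembly and signalling (grey), with filled points where the adjusted p was under 0.05. Trgc4, Trdc, Trgc2 and Trgc1 are the uppermost of the constant genes, from 1.45 to 0.58, and Lef1 and Il7r are the lowest of the other genes.

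Markers of cells that could carry these transcripts were set beside them. Of all genes tested, edgeR called 0.135% higher and 1.51% lower. At an unadjusted p under 0.05 in edgeR these shares were 3.08% and 7.26%. Of the 9 symbols on the gamma-delta list 7 matched and 6 were tested. Of these Cd163l1 rose (log2 fold change 3.35, adjusted p = 0.00552, edgeR) and Ccr6 fell (-3.06, adjusted p = 0.0145). Blk stood at 1.04 and did not pass (adjusted p = 0.177, edgeR). It did not overlap, with 5.76 and 6.08 CPM in Toxf/f and 8.11 to 17.9 CPM in Toxf/fPdcd1Cre libraries. Maf, Sox13 and Il23r stood at 0.28, 0.10 and 0.05, with none past the threshold. At an unadjusted p under 0.05 in edgeR 2 of the 6 were higher, Cd163l1 and Blk, and 1 was lower, Ccr6. None of the 7 was at 0 in every library. Their summed level, led by Cd163l1 and Maf, was 45.7 and 56.6 CPM in Toxf/f and 71.1 to 153 CPM in Toxf/fPdcd1Cre libraries. Cd163l1 was at 5.31 and 3.25 CPM in Toxf/f libraries, and without it the summed levels of the groups overlap. Cd163l1, a scavenger receptor of gamma-delta cells, was at 78.0 CPM in Toxf/fPdcd1Cre replicate 1, the library highest in Trdc, and at 27.4 and 25.4 CPM in replicates 2 and 3. Of innate-like and natural killer genes, led by Il2rb, 2 of 6 tested were higher by edgeR, Klrb1c and Klrk1, and 0 were lower. At an unadjusted p under 0.05 in edgeR 2 were higher and 1 lower, Il2rb (log2 fold change -0.72, adjusted p = 0.318). Tbx21 was lower without overlap (-0.70, adjusted p = 0.585, edgeR), and Eomes stood at -0.34. Sums of this list were 64.5 and 93.4 CPM in Toxf/f and 51.3 to 118 CPM in Toxf/fPdcd1Cre libraries. Zbtb16, a factor of innate-like T cells, was at 18.4 CPM in replicate 1 and at 2.24 to 6.44 CPM in the other 4 libraries. Its log2 fold change was 0.97 ± 0.671 (SE, adjusted p = 0.729, edgeR), with overlap.

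In the list of mature single-positive cells, led by Ccr7 and Il7r, 5 of 5 genes were lower by edgeR (1.51% of all genes). They were Ccr7, S1pr1, Klf2, Il7r and Foxp3. Their sum was 206 and 240.2 CPM in Toxf/f and 66.2 to 93.7 CPM in Toxf/fPdcd1Cre libraries. The double-positive list, led by Rag1 and Cd8a, had 0 of 7 called by edgeR, 0 by DESeq2 and 0 at an unadjusted p under 0.05, with sums of 8852 and 9595 CPM in Toxf/f and 8759 to 11293 CPM in Toxf/fPdcd1Cre libraries. Of early double-negative genes, led by Il2ra and Notch3, 1 of 10 was lower by edgeR, Il7r (1.51% of all genes). At an unadjusted p under 0.05 in edgeR 2 were higher and 2 lower (3.08% and 7.26% of all genes). Of dendritic cell genes, led by H2-Aa and H2-Ab1, 2 of 7 were lower by edgeR, Flt3 and Ccl22 (1.51% of all genes). DESeq2 called 4 lower (2.22%), and 6 were lower at an unadjusted p under 0.05 in edgeR (7.26%). The sum of the dendritic cell genes was 1377 and 1725 CPM in Toxf/f and 741 to 1089 CPM in Toxf/fPdcd1Cre libraries, without overlap. Lists of B cells (led by Cd79b and Cd79a), macrophages and granulocytes (Lyz2 and Csf1r), thymic epithelium (Ccl25 and Krt8) and erythroid cells (Hbb-bs and Hba-a1) had 0 genes called by edgeR. Of 7, 5, 7 and 3 genes tested in these lists, 3, 1, 1 and 2 were lower at an unadjusted p under 0.05 (7.26% of all genes). DESeq2 called 1 lower gene (2.22%), of the B cell list. The sum of macrophage and granulocyte genes was 454 and 557 CPM in Toxf/f and 208 to 341 CPM in Toxf/fPdcd1Cre libraries, also without overlap, and that of B cell genes was 60.5 and 89.2 CPM against 52.3 to 59.9 CPM. The part of these cells in the levels of the receptor genes was not tested.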

How the data were processed

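RNA of sorted thymocytes was extracted with Trizol and made into NEBNext Ultra libraries, per the labels' protocols. The authors deposited an estimated count and an FPKM value for 22298 genes in each of 6 samples, per the file headers; 8.81% to 9.84% of counts per library were not whole. The submitters' processing notes name StringTie 1.3.1, fastp 0.18.0 and HISAT2; what each did, the build, the annotation and the use of strand are not given.

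Members and gene lists were chosen with earlier results of these data known. Counts were rounded, filtered with filterByExpr (14121 genes), scaled by TMM and tested across all genes with edgeR 4.0.16 (quasi-likelihood test, R 4.3.3) for the difference of Toxf/fPdcd1Cre from Toxf/f, with Benjamini-Hochberg adjustment and a threshold of 0.05. The permutation test used log2(CPM + 0.5). The test was checked on simulated counts. The design had assumed shares of V and J segments, which could not be computed. Always named were constant genes, Rag1, Rag2, Dntt, Ptcra and Cd3e. From lists, called members and the most abundant were named, with some others added, among them Blk, Sox13, Il23r, Zbtb16, Tbx21 and Eomes. For 2 genes of these lists results are not reported here, and they were left out of the lists' counts, medians and sums. Positions and sequences were taken from GENCODE M21 (GRCm38), where the Ensembl identifiers of 82 of 82 members were found; its build may differ from that of the files. Alternatives were RLE scaling, TMM from genes outside the loci, no filter, DESeq2 1.42.0, limma 3.58.1 with voom or on log2(FPKM + 1), a replicate block, age, separate identical files, a threshold of 0.1 and leaving out each library. Chain sums were also taken on unscaled totals and on FPKM.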

Additional observations from a re-analysis of the deposited data

How the results depend on the processing

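The number of receptor genes called higher was 1 and rested on the setting: it was 0 with RLE scaling, limma on log2(FPKM + 1) or age as a covariate, 2 with the identical files counted separately, 3 with no filter, DESeq2 or a threshold of 0.1, and 0 to 3 leaving out each library. The number called lower was 0 in all 15 alternatives. The fold change of Trdc stayed above 0 in 14 of 14 alternatives and its call held in 8, against 5 of 14 for Trgc2, 4 for Trgc4 and 1 for Trgc1. The counts of all 4 genes include the replicate block. It gave the lowest adjusted p of Trdc, 1.58e-05 (edgeR), and the only call of Trgc1. Those of Trdc and Trgc2 also include the fit with identical files counted separately, which enters 1 library as 2. With the replicate number as a block, Toxf/fPdcd1Cre replicate 2 is alone in its block and adds nothing to the difference between genotypes. In that fit, which leaves few degrees of freedom, 4 receptor genes were higher, and 435 of all genes were called against 232. Deviations of same-numbered libraries from their group means had correlations of -0.198, 0.105 and -0.157. The deviations of 2 Toxf/f libraries mirror each other, so these values cannot decide whether the numbers are pairs. The numbers were not treated as pairs in the reported test. All-gene calls were also 417 with no filter, 359 with DESeq2, 380 with identical files counted separately, 125 with age, and 31 to 606 leaving out each library (606 without Toxf/fPdcd1Cre replicate 1). The cause of these differences was not tested.

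Fold changes near 0 changed sign. Trbc1 was at -0.018 on FPKM and -0.014 with the replicate block, and ranged from -0.013 to 0.10 leaving out each library. Leaving out each library gave -0.24 to 0.036 for Trbc2, -0.023 to 0.21 for Rag2 and -0.25 to 0.21 for Cd3e. The log2 ratios of the 4 chain sums moved by less than the spread between libraries in all 8 alternatives, though that of the beta chain changed sign, to 0.056, without the library shared by Toxf/f replicates 1 and 2. Sums by segment class equalled the chain sums but for the 1 count of Trgj2. With 2 and 3 libraries, a change the size of that of Trgc1 could not be told from the spread.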
